A study of Mus musculus with 9 samples.

Results

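Mouse embryonic fibroblasts without Rb1 (genotype Rb -/-, null) were set against fibroblasts with 2 intact copies of the gene (Rb +/+, WT), 3 arrays each, or 6 of the 9 arrays of the series. The members were chosen by the genotype in the labels and are described across every gene with a single symbol, 19938 in all, with the probe set of highest mean over all 9 arrays where a gene has several. The other 3 arrays come from fibroblasts homozygous for the ΔG allele (Rb ∆G/∆G), which the series text describes as mutated at the site that E2F proteins share, and they serve for the spread of the fit and as a group set beside. All 9 cultures were serum deprived. They were plated at low density on 15 cm dishes and moved after 24 h to medium with 0.1% serum, in which normal fibroblasts stop cycling. Total RNA was measured on a whole-transcript gene array. Which part of Rb1 is missing from the null allele is not labelled, the array titles of the null group carry an unexplained prefix, and the series text speaks of paired littermates but does not tell which arrays belong together. Whether arrays of 1 genotype stem from different embryos is not labelled. WT replicate 3 differs from WT replicates 1 and 2 in sex-linked genes (below), so the WT arrays do not all share 1 source. The p-values reflect the spread among these samples, which within null and within ΔG is possibly a technical one.

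The retinoblastoma protein binds E2F transcription factors and holds their target genes silent in cells that rest outside the cell cycle. E2F targets code for the machinery that licenses, fires and copies DNA replication origins. A second set of cell cycle genes, which act in mitosis, is held silent in resting cells by the DREAM complex, built from the related pocket proteins p107 and p130, a repressor E2F and the MuvB core. DREAM and the activators that follow it read a promoter element called the cell cycle genes homology region (CHR), often beside CCAAT boxes. Fibroblasts are also the chief makers of collagen, proteoglycans and their cross-linking enzymes.

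Of the arrays, medians lay between 6.33 and 6.4 (log2 signal), and correlations across probe sets were 0.990 to 0.993 among WT arrays, 0.991 to 0.993 among null arrays and 0.981 to 0.987 between the groups. Rb1 gave 8.93, 9.17 and 9.16 on the WT arrays and 8.18, 8.58 and 8.19 on the null arrays, with no overlap, and fell by 0.77 (log2, SE 0.12, limma adjusted p = 0.0011). Where the probes lie relative to the deleted part was not checked, and what the remaining signal says of the labels was not tested. The X-inactivation RNA Xist gave 4.31, 4.45 and 11.42 on the WT arrays and 11.64, 11.98 and 11.52 on the null arrays, and on WT replicate 3 and all null arrays Y-linked genes were low. ΔG arrays had low Xist, at 4.24, 4.25 and 4.30. Genotype and sex pattern therefore coincide in part, and 2 further settings are given below where they take the call of a named gene or move the count of a list by over 1.5 times: null against WT replicate 3 alone, the WT array with high Xist, and a fit with the mean of 3 Y-linked genes (Eif2s3y, Kdm5d and Uty) as a covariate. The median standard error over all genes was 0.121 against WT replicate 3 alone and 0.128 with the covariate, and 0.0877 in the fit without either. Among the 12 fibroblast markers 8 fell, where 10.1% of all genes did, and their mean signal was 10.98, 10.95 and 10.72 on WT and 10.43, 10.40 and 10.26 on null arrays. Of the 16 macrophage and leukocyte markers none was called, with 0 at an unadjusted p under 0.05 by limma, and their mean signal was 6.54, 6.15 and 5.47 on WT and 6.0, 5.66 and 5.92 on null arrays. Some markers of other cell types were called. They were 1 of 11 epithelial, 2 of 8 cartilage and bone, 1 of 10 endothelial, 1 of 11 muscle and 1 of 11 neural markers. None of 7 liver and 5 erythroid markers was called by limma. Mean WT signal was 5.28 for erythroid, 5.49 for liver and 5.61 for epithelial markers. It was 6.07 to 6.24 for muscle, neural, endothelial, and cartilage and bone markers. Of all genes 18.4% were called, with 4.53% of the 6646 dimmest (means up to 5.66) and 23.1% of the 6646 next in signal. Signal was not matched, so the counts do not tell whether these markers were called less often than other genes. Krt19, a keratin of simple epithelia, was higher by 1.48, Comp, a cartilage matrix protein, by 0.74 and Acan, a cartilage proteoglycan, by 0.25 (log2). Emcn of endothelium, Des of muscle and Ncan of neural tissue were lower by 0.81, 0.58 and 0.31. The calls of Acan, Emcn, Des and Ncan were each lost without WT replicate 1, WT replicate 2, null replicate 1 or null replicate 2, among others, and in both sex-pattern settings, with log2 changes against WT replicate 3 alone of 0.23, −0.091, −0.32 and −0.40 and with the covariate of 0.23, −0.075, −0.22 and −0.43. The defining markers Epcam, Pecam1, Myod1, Sox10, Alb and Hbb-y were not called. In bulk RNA fewer cells of a type and less RNA per cell cannot be told apart, and the part of such cells in the results was not tested. The covariate alone took the call of Comp (0.73). By setting, the 8 lower fibroblast marker genes became 2 against WT replicate 3 alone, 1 with the Y-linked covariate and 5 with repeated quantile normalization.

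In null fibroblasts 3678 of 19938 genes (18.4%) differed from WT at a Benjamini-Hochberg adjusted p of 0.05 in limma. Of these 1670 (8.38%) were higher and 2008 (10.1%) were lower. Most changes were small: the median called rise was 1.43-fold and the median called fall 1.33-fold, and 91.7% of all genes lay within 0.5 log2 of no change. At least 2-fold differences were more often rises, with 218 genes higher (1.09%) and 162 lower (0.813%). Called or not, 34.7% of all genes had null and WT arrays that did not overlap. Among the 3678 called genes it was 3652, so lack of overlap adds little to a call. Among the 6646 brightest genes 10.3% rose and 17.4% fell, against 2.18% and 2.35% among the 6646 dimmest. By chromosome the share called ran from 13.7% on chromosome 7 to 28.1% on chromosome 12, leaving out the mitochondrial genome and the Y chromosome, where 2 and 9 genes were measured. Against WT replicate 3 alone 2010 genes were called (10.1%), 981 higher (4.92%) and 1029 lower (5.16%), of which 1760 were among the 3678 with the same direction. With the Y-linked covariate 1580 genes were called (7.92%), 764 higher (3.83%) and 816 lower (4.09%). Without any 1 of the 9 arrays 2128 of the 3678 calls were kept, 1030 higher and 1098 lower, and the total fell to 2546 without null replicate 1. The gene lists used below are set beside the 8.38% of all genes that rose and the 10.1% that fell. These lists were chosen with earlier results of these data known, so their counts describe the members and test nothing. Some genes, such as Kif23 and Col3a1, stand in more than 1 list, so counts of different lists, and their moves between settings, can rest on the same gene.

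**Figure D1:**
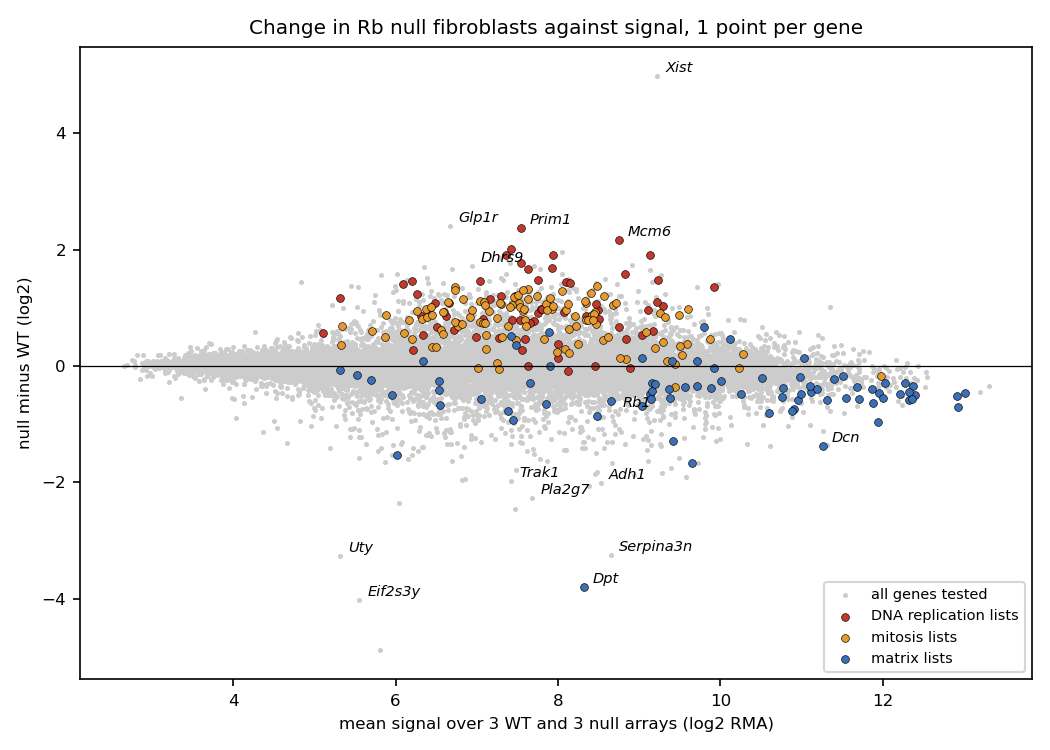
Change between null and WT (log2, vertical axis) against the mean signal of the 6 arrays (log2 RMA, horizontal axis), 1 point per gene, with members of the replication lists in red, of the mitosis lists in orange and of the matrix lists in blue. Red and orange points lie mostly above 0 and blue points, many of them bright, mostly below it, with Dpt at −3.79 the lowest of the blue points and Prim1 at 2.36 the highest of the red.

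The largest rise outside the sex-linked genes was that of Glp1r, the receptor of the gut hormone GLP-1. Its signal was 5.44, 5.55 and 5.41 on the WT arrays and 7.61, 8.61 and 7.41 on the null arrays, and every null array lay above every WT array by more than the spread within either group. This is a 5.30-fold rise (log2 2.41, SE 0.25, adjusted p = 1.1e-04). Dhrs9 and Prg4 were the other such rises among the 20 largest without a known part in the cell cycle. Dhrs9, a retinol dehydrogenase, gave 6.28, 6.26 and 5.71 on the WT arrays and 7.70, 7.99 and 7.70 on the null arrays and rose 3.27-fold. Prg4, which codes for the joint lubricant lubricin, gave 5.78, 6.35 and 5.45 on the WT arrays and 7.55, 7.43 and 7.61 on the null arrays and rose 3.19-fold. The null arrays of both lay within a narrow band, while WT replicate 3 was the lowest WT array of each. Most other named rises of this size were in genes of DNA replication, chromatin assembly and the entry to S phase, described below.

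Dpt, which codes for dermatopontin, a small matrix protein that binds decorin, gave 10.24, 10.05 and 10.35 on the WT arrays and 6.71, 6.07 and 6.49 on the null arrays. All WT arrays lay above 10 and all null arrays below 7, a 13.8-fold fall (log2 −3.79, SE 0.35, adjusted p = 4.8e-05). Serpina3n, an inhibitor of serine proteases, gave 10.53, 10.17 and 10.12 on the WT arrays and 6.82, 7.04 and 7.21 on the null arrays and fell 9.51-fold, though it belongs to a family of near-identical copies that the probes may not separate. The same caution holds for Prl3a1, a prolactin family member that fell 5.46-fold, and for the chloride channel regulator Clca3a1, which fell 3.44-fold. Trak1, an adaptor that links mitochondria to kinesin, gave 8.36, 8.38 and 8.47 on the WT arrays and 6.30, 6.42 and 6.58 on the null arrays. Its WT arrays differed by little and its null arrays were all about 2 units lower, a 3.92-fold fall with the small standard error of 0.080. Slc22a23, an orphan member of the organic ion transporters, gave 9.27, 9.46 and 9.43 on the WT arrays and 7.30, 7.66 and 7.63 on the null arrays and fell 3.63-fold. Further falls were those of Pla2g7, the secreted phospholipase that breaks down platelet-activating factor (4.82-fold), Pgm5, a cytoskeletal relative of phosphoglucomutase (4.18-fold), Adh1, an alcohol and retinol dehydrogenase (4.02-fold), and Agtr2, a receptor of angiotensin II (3.73-fold). Parm1, Lrrc15 and Fibin fell 3.65-fold, 3.56-fold and 3.37-fold. Adamts9, a protease of versican, fell 3.18-fold, Cemip, which takes part in hyaluronan breakdown, 3.16-fold, and the fatty acid binding protein Fabp7 3.53-fold. Calls were lost under both sex-pattern settings, first WT replicate 3 alone and then the covariate, for Fabp7 (−1.97 and −2.10) on the log2 scale, and the covariate alone took the call of Prl3a1 (−2.17) and Cemip (−1.63). Fabp7 was not called with robust eBayes (log2 −1.82).

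**Figure D2:**
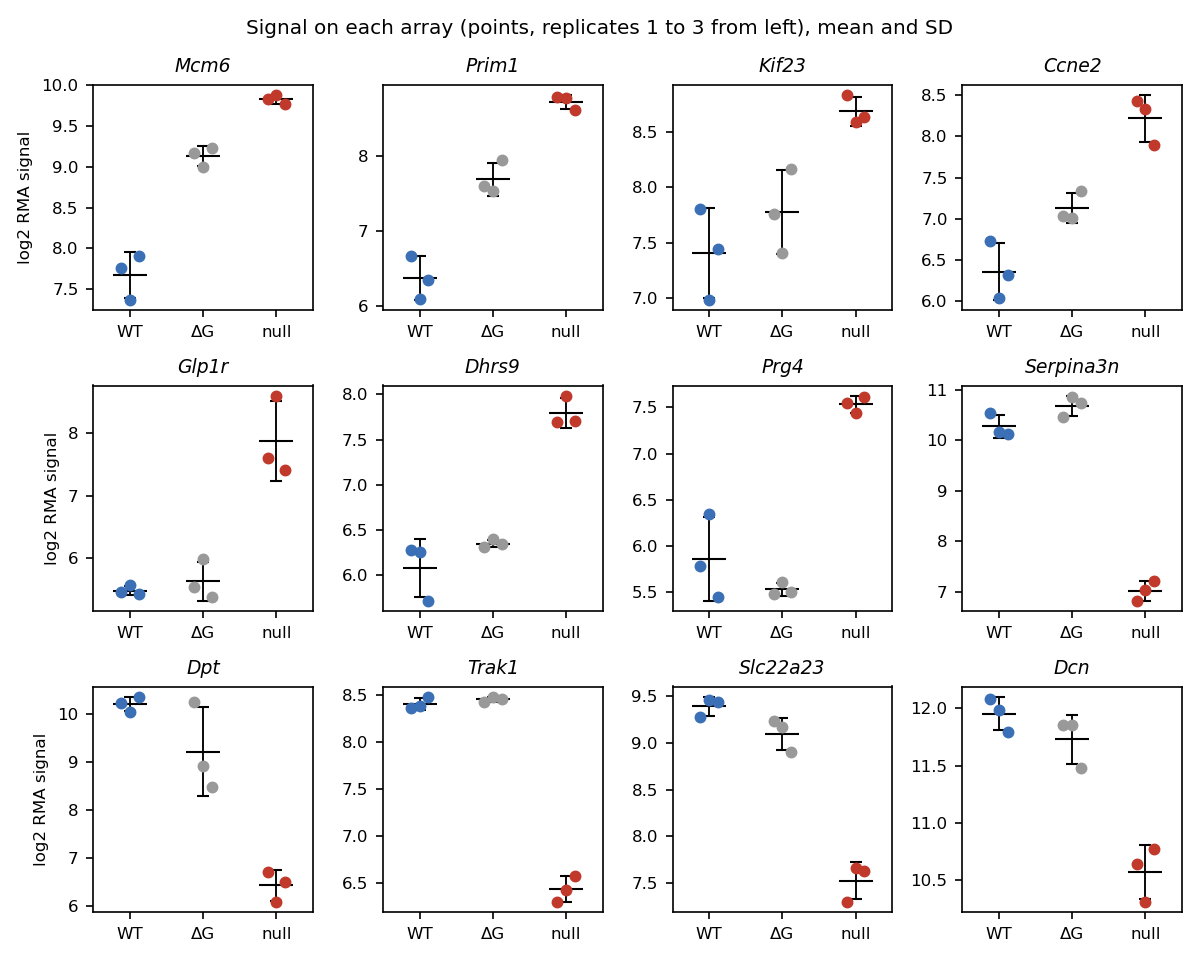
Signal (log2 RMA) of 12 genes on each array, points in the order of replicates 1 to 3 within WT, ΔG and null, with the mean as a horizontal bar and the SD as whiskers (n = 3 each). In all 12 panels the 3 null arrays lie apart from the WT arrays. Such separation was a condition for the genes of largest change and held for 3652 of the 3678 called genes. For Mcm6, Prim1 and Ccne2 the ΔG arrays lie between the other 2 groups.

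Most genes of DNA replication rose. Of the 10 measured genes of the MCM helicase, the ring that unwinds DNA at the fork, and its partners, all 10 rose, with a median log2 change of 1.46. Mcm6 gave 7.76, 7.36 and 7.90 on the WT arrays and 9.83, 9.89 and 9.77 on the null arrays, so that the null arrays lay close together and more than 1 unit above the highest WT array, a 4.46-fold rise (SE 0.12, adjusted p = 6.3e-06). Mcm3, Mcm2, Mcm4, Mcm7 and Mcm5, the other subunits of the ring, rose 3.74-fold, 3.73-fold, 2.98-fold, 2.79-fold and 2.71-fold, while the paralog Mcm9 and Mcm10, which helps to activate the helicase, rose 1.46-fold and 1.67-fold. Origin licensing, the loading of that ring, was less even. Cdt1 and Cdc6, which bring the helicase to the origin, rose 3.16-fold and 1.80-fold, and the origin recognition subunits Orc1 and Orc6 rose 2.67-fold and 1.95-fold. Orc3 and Orc5 had log2 changes of −0.032 and 0.0092 and were not called. Geminin (Gmnn), the inhibitor of Cdt1, rose 1.47-fold and Orc2 1.30-fold, so that 6 of 9 licensing genes rose. With WT replicate 3 as the only WT array and with the Y-linked covariate, in this order, Mcm9 (0.42 and 0.38), Mcm10 (0.61 and 0.55), Gmnn (0.42 and 0.38) and Orc2 (0.35 and 0.34) were not called (log2 changes).

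All 14 genes of origin firing rose, with a median of 1.06. Wdhd1, which ties the helicase to polymerase alpha, gave 6.91, 6.44 and 6.63 on the WT arrays and 8.48, 8.55 and 8.28 on the null arrays. The lowest null array was more than 1 unit above the highest WT array, and the rise was 3.43-fold. Tipin and Timeless, partners in the complex that protects the fork, rose 2.68-fold and 2.12-fold, Gins1 and Gins2 of the GINS complex 2.74-fold and 1.88-fold, and Topbp1, which recruits GINS, 2.04-fold. Of 12 subunits of DNA polymerases and primase 10 rose (median 0.97). Prim1, the catalytic subunit of primase, gave 6.67, 6.09 and 6.35 on the WT arrays and 8.79, 8.78 and 8.63 on the null arrays, the largest rise of the list at 5.14-fold (SE 0.14, adjusted p = 7.5e-06). Its partners in the same complex rose as well, Pola1 4.01-fold, Pola2 1.96-fold and Prim2 1.81-fold. Of polymerase epsilon, which copies the leading strand, Pole and Pole2 rose 3.20-fold and 3.77-fold, whereas its histone-fold subunit Pole3 had a log2 change of 0.14 and was not called.

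The genes that load the sliding clamp and join Okazaki fragments rose in 18 of 19 cases, with a median of 0.91. Lig1, the ligase of lagging strand synthesis, gave 7.11, 6.80 and 7.14 on the WT arrays and 8.49, 8.58 and 8.40 on the null arrays and rose 2.79-fold. Dna2, a nuclease of Okazaki fragments, rose 2.75-fold, Rfc2 of the clamp loader 1.97-fold, Dscc1 of the alternative loader 2.26-fold, and Rpa1 and Rpa3 of the single-strand binding complex 1.91-fold and 2.22-fold. The exception was Rnaseh2c, a subunit of RNase H2, at 0.27 and not called. Of 15 genes of deoxynucleotide synthesis 12 rose (median 0.86). Rrm2, the subunit of ribonucleotide reductase whose level follows the cell cycle, gave 8.67, 8.38 and 8.44 on the WT arrays and 10.01, 10.39 and 9.75 on the null arrays. All null arrays were above all WT arrays, and the rise was 2.94-fold. Tyms, thymidylate synthase, rose 2.69-fold, Dck, deoxycytidine kinase, 2.07-fold, Dut, which removes dUTP, 2.05-fold, and the other reductase subunit Rrm1 1.86-fold. Rrm2b, the reductase subunit that p53 controls, was at −0.31 and missed the threshold (adjusted p = 0.057). Counted under other settings, the count of lower deoxynucleotide genes went from 0 to 1 without the dimmest genes or ΔG replicate 1 or with median centring, repeated quantile normalization, only the 2 genotypes compared, array weights or replicate block.

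Promoter sequences are shown for 3 of these genes, those with the largest rises among the replication lists whose promoter holds an E2F motif. The motif was searched on both strands as TTTCCCGC, TTTCGCGC, TTTGCCGC or TTTGGCGC in the RefSeq promoter table (GRCm38.p6), which spans 250 bases before to 50 bases after the annotated start. The table held 19116 promoters of 15563 of the genes tested. Each promoter is written 5′ to 3′ on the strand of its gene, with the motif in capitals on whichever strand it lies.
Mcm6 (chr1:128359656-128359955, minus strand): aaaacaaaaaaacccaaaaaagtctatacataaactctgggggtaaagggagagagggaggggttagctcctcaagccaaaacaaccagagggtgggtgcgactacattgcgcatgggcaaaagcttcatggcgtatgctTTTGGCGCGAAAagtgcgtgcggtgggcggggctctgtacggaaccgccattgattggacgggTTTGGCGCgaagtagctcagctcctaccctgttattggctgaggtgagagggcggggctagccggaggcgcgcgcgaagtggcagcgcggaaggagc
Pola1 (chrX:93632106-93632405, minus strand): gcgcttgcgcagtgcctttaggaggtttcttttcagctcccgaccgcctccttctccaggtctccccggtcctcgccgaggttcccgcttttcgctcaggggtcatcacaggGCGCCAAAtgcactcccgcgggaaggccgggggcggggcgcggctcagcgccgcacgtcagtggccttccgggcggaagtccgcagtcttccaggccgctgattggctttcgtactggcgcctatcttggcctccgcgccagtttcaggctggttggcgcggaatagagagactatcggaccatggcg
Pole2 (chr12:69228141-69228440, minus strand): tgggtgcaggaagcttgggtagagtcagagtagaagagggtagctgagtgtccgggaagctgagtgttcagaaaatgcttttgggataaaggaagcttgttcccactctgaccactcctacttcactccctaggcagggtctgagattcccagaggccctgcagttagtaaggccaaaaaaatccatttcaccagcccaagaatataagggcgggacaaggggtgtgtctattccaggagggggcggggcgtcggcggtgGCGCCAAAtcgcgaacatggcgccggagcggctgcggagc
Mcm6 holds 3 matches, 2 of which overlap on opposite strands. Pola1 and Pole2 hold 1 each, 138 bases before and 10 bases after the start. Over all genes tested 2.99% of promoters held the motif, against 9.32% of promoters of genes that rose, 2.24% of those that fell and 2.42% of those not called. Among genes at least 2-fold higher the share was 17.8%, and among those at least 2-fold lower 0.758% (1 of 132 promoters). It was in 6 of 10 promoters of the MCM list and 6 of 12 of polymerase and primase subunits, while none of 16 promoters of deoxynucleotide synthesis held it. The shares describe these letters in this window only. The matches of 10 further called genes were picked without a fixed rule. Others with a rise between theirs, such as Mcm7 and Ezh2, are left out. Turned to the strand on which the motif reads TTT, and with 10 bases on each side, the 10 compare as follows, from the largest rise to the smallest.
Mcm3: cttcccaagtTTTCCCGCcacggaagtt
Rbl1: agaaggcgatTTTCGCGCgctttgtcgc
Hells: accaccgggtTTTCCCGCgaaagagaag
Cdt1: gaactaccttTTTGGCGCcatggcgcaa
Dnmt1: accccggcttTTTCGCGCgcgcggaaac
Lig1: gccacacagaTTTCGCGCgcactttggc
Uhrf1: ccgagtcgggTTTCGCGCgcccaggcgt
Orc1: ggagaaaactTTTCGCGCcactaaccga
Brca2: tgtgtgtctgTTTCCCGCtgtggcctaa
Cdk2: gctgcacaacTTTCCCGCagttcctggt

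Most of the machinery that rebuilds chromatin behind the fork rose. Of 13 histone chaperones and related factors 10 rose (median 0.66). Chaf1b, a subunit of the assembly factor that follows the clamp, gave 7.36, 6.91 and 6.93 on the WT arrays and 8.91, 9.20 and 8.96 on the null arrays. All null arrays lay more than 1 unit above the highest WT array, and it rose 3.88-fold. The helicase Hells, needed for DNA methylation of repeats, rose 3.19-fold, the acetyltransferase Hat1, which marks new histones, 2.54-fold, and the chaperone Nasp 2.30-fold. Asf1a and Daxx had log2 changes of 0.15 and 0.063 and were not called. Among enzymes that copy DNA methylation and Polycomb marks 9 of 13 rose and 1 fell. Dnmt1, which copies methylation to the new strand, rose 2.79-fold and its partner Uhrf1 2.67-fold, while Dnmt3b, a de novo methyltransferase, was at −0.062. Ezh2, the Polycomb methyltransferase, gave 8.80, 8.31 and 8.74 on the WT arrays and 9.86, 9.81 and 9.71 on the null arrays and rose 2.27-fold, with its partners Eed and Suz12 up 1.47-fold and 1.39-fold. Ezh1, the form found in cells that do not divide, gave 7.89, 7.97 and 8.04 on the WT arrays and 7.59, 7.73 and 7.58 on the null arrays and fell 1.26-fold (log2 −0.33, SE 0.076, adjusted p = 0.011), the sole fall of the list. Lost to the covariate alone was the call of Ezh1 (−0.41). In other settings the 10 higher chaperone genes became 6 with the Y-linked covariate.

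Replication-dependent histone genes went both ways, 6 of 17 higher and 4 lower. H2ac4 rose 3.26-fold and the linker histone H1f1 2.36-fold. H2bc4, H1f2, H3c4 and H3c15 fell 2.55-fold, 2.37-fold, 2.15-fold and 1.68-fold. H2ac4 gave 6.24, 5.25 and 5.0 on the WT arrays and 7.28, 7.14 and 7.17 on the null arrays and H1f2 gave 9.69, 9.83 and 9.51 on the WT arrays and 8.69, 8.46 and 8.14 on the null arrays, and neither pair of groups overlapped. These genes are near-identical copies, their main transcripts lack the poly(A) tail of other mRNAs, and their probes are uncertain. The covariate alone took the call of H3c4 (−0.84). With other settings, the 6 higher histone genes became 3 without WT replicate 2, WT replicate 3, null replicate 1 or null replicate 2.

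Regulators of the G1/S step rose in part. Of 19 genes of the RB, E2F and DREAM families 10 rose and only Rb1 fell. Rbl1, which codes for the pocket protein p107, gave 7.10, 6.57 and 6.88 on the WT arrays and 8.51, 8.69 and 8.51 on the null arrays and rose 3.29-fold, whereas Rbl2, which codes for p130 and was chosen after its values were seen, was at −0.12. E2f8 and E2f7, repressor E2Fs without a pocket protein site, rose 2.98-fold and 2.17-fold, Tfdp1, the dimer partner of most E2Fs, 1.69-fold and Mybl2, which joins MuvB as an activator, 1.39-fold. E2f2 and E2f5 had changes of 0.035 and −0.024. Among G1 cyclins, kinases and inhibitors 8 of 17 rose and 3 fell. Ccne2, a cyclin that activates CDK2, gave 6.73, 6.04 and 6.32 on the WT arrays and 8.43, 8.33 and 7.90 on the null arrays, and all null arrays lay more than 1 unit above all WT arrays. It rose 3.62-fold, Ccne1 1.95-fold and Cdk2 itself 2.17-fold. Cdkn2c, an inhibitor of CDK4 and CDK6, rose 2.83-fold, Fbxo5, an inhibitor of the anaphase-promoting complex, 2.74-fold, and Skp2, which marks p27 for breakdown, 1.75-fold. Cdkn1c, which codes for the inhibitor p57, fell 1.76-fold. Cdk4 and Cdkn2a were at 0.062 and 0.18 and were not called. In both of the settings that allow for the sex pattern (WT replicate 3 alone, then the Y-linked covariate) no call was made for Cdkn1c (−0.67 and −0.68), in log2. Under the alternatives the 10 higher RB and E2F genes became 5 against WT replicate 3 alone, 5 with the Y-linked covariate and 6 without WT replicate 2 or null replicate 1, while the 3 lower G1 genes became 0 against WT replicate 3 alone, 0 with the Y-linked covariate and 1 without WT replicate 1, WT replicate 2, ΔG replicate 1, null replicate 1 or null replicate 3 or with repeated quantile normalization or only the 2 genotypes compared.

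Repair genes rose widely but not evenly. Of 17 genes of homologous recombination 16 rose (median 0.67). Brca2, which loads the recombinase, gave 6.35, 6.18 and 6.31 on the WT arrays and 7.56, 7.63 and 7.39 on the null arrays and rose 2.37-fold, Exo1, a resection nuclease, 2.45-fold, Rad51c 2.34-fold, Bard1, the partner of BRCA1, 2.19-fold and Rad54b 2.06-fold. Of 14 Fanconi anaemia genes, which act on crosslinks, 10 rose. Fanca, Fancl and Fanci rose 2.39-fold, 1.96-fold and 2.05-fold, while Fance and Fancf were at −0.064 and 0.012. Of 13 checkpoint genes 8 rose. Chek1 gave 7.39, 7.09 and 7.24 on the WT arrays and 8.68, 8.49 and 8.62 on the null arrays and rose 2.56-fold, and Wee1, which restrains CDK1, 1.98-fold. Atm rose 1.57-fold, whereas Atr and its partner Atrip had changes of 0.015 and 0.0049. In mismatch and excision repair 9 of 12 rose and 1 fell. Msh6, of the mismatch sensor, rose 2.01-fold and Ung, which removes uracil from DNA, 1.55-fold. The fall was that of Mlh3, a mismatch repair protein with a part in meiotic crossovers, which gave 8.03, 8.09 and 8.17 on the WT arrays and 7.20, 7.21 and 7.09 on the null arrays and fell 1.90-fold (SE 0.071, adjusted p = 1.5e-05). Its groups did not overlap, and its change went against those of the other called genes of that list. Across settings, the 16 higher recombination genes became 10 with the Y-linked covariate and the 9 higher mismatch and excision genes became 5 against WT replicate 3 alone and 4 with the Y-linked covariate.

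Most genes of mitosis rose. Of 23 mitotic cyclins, kinases and APC genes 20 rose (median 0.88), and their mean signal was 8.08, 7.63 and 7.66 on WT, 7.82, 7.68 and 8.33 on ΔG and 8.65, 8.60 and 8.47 on null arrays. WT replicate 1 was the highest WT array and ΔG replicate 3 the highest ΔG array, and the null arrays lay above all others. Plk1, a kinase of mitotic entry, gave 8.43, 7.80 and 7.64 on the WT arrays and 9.28, 9.18 and 9.03 on the null arrays and rose 2.31-fold. Ccnf rose 2.27-fold, Melk 2.10-fold, and the checkpoint kinase Bub1b and Aurora kinases Aurka and Aurkb 2.34-fold, 2.04-fold and 2.07-fold. Fzr1, the APC activator of G1, and the APC subunit Anapc1 were at 0.14 and −0.035. Of 36 centromere and kinetochore genes 29 rose, among them Kntc1 of the checkpoint 2.56-fold, Cenpk and Cenpm of the inner kinetochore 2.23-fold and 2.23-fold, and Spc25 of the microtubule contact 2.11-fold. Cenpc1 had a change of −0.044. Zwint, a kinetochore adaptor, had a log2 change of −0.36, the sole call below WT in that list. Of 22 cohesin and condensin genes 18 rose. The condensin subunits Ncapg2 and Ncaph rose 2.5-fold and 2.12-fold, and the cohesin subunits Stag1 and Smc1a 1.37-fold and 1.31-fold. Neither against WT replicate 3 alone nor with the Y-linked covariate was there a call for Zwint (−0.39 and −0.39), log2 changes in that order, and the covariate alone took the call of Bub1b (1.18), Aurka (1.06), Aurkb (1.09) and Smc1a (0.33). Zwint was not called without WT replicate 2 (log2 −0.34). The 20 higher mitotic kinase and cyclin genes became 4 with the Y-linked covariate and 13 without WT replicate 2 or null replicate 1 and the 29 higher kinetochore genes became 19 against WT replicate 3 alone and 11 with the Y-linked covariate. With the setting changed, the count of lower kinetochore genes went from 1 to 0 against WT replicate 3 alone, 0 with the Y-linked covariate and 0 without WT replicate 2, while the 18 higher cohesin and condensin genes became 8 with the Y-linked covariate.

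Of 23 kinesins and spindle proteins 21 rose (median 1.01). Kif18b, a kinesin at microtubule plus ends, gave 8.17, 7.62 and 7.61 on the WT arrays and 9.16, 9.52 and 8.84 on the null arrays and rose 2.60-fold. Kif4, a kinesin of chromosomes and the midzone, gave 6.65, 5.88 and 5.71 on the WT arrays and 7.42, 7.45 and 7.29 on the null arrays and rose 2.47-fold. For both, WT replicate 1 was the highest WT array and still lay below all null arrays. Kif18a, which dampens chromosome movement, rose 2.02-fold and Kif15 2.02-fold. Ckap5 and Numa1 were at 0.081 and 0.030. In cytokinesis 10 of 12 genes rose. Kif23 of the midzone rose 2.44-fold, the formin Diaph3 2.48-fold, Anln, which ties actin to the ring, 2.11-fold and Ect2, which activates RhoA, 2.17-fold, while Rhoa itself was at −0.18. Of 12 genes of centriole duplication 7 rose, with Stil up 2.23-fold and Cntln 1.69-fold. Lost to the covariate alone was the call of Kif23 (1.16) and Ect2 (1.16). With 1 setting changed at a time, the 21 higher kinesin and spindle genes became 10 with the Y-linked covariate and the 10 higher cytokinesis genes became 4 with the Y-linked covariate. By setting, the 7 higher centriole genes became 4 against WT replicate 3 alone, 3 with the Y-linked covariate and 4 without WT replicate 2 or null replicate 1.

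Promoters of 2 kinesins are shown because the share of promoters with CHR letters was highest in the list of kinesins and spindle proteins. CHR was searched as TTTGAA or TTCGAA and CCAAT as CCAAT, on both strands, in the same windows and from the same table, and matches are in capitals.
Kif18b (chr11:102925075-102925374, minus strand): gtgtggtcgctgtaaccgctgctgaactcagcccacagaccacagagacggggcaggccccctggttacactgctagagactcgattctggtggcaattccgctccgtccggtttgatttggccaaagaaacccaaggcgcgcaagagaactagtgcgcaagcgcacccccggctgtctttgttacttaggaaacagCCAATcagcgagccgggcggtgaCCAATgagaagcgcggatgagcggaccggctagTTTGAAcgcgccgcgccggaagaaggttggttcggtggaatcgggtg
Kif4 (chrX:100625815-100626114, plus strand): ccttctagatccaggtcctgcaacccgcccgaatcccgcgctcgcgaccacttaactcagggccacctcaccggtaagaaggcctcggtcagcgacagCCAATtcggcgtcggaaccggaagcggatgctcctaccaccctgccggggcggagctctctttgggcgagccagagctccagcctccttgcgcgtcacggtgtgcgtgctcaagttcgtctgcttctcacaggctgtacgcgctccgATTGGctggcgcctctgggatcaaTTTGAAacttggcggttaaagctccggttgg
Dpt (chr1:164796413-164796712, plus strand): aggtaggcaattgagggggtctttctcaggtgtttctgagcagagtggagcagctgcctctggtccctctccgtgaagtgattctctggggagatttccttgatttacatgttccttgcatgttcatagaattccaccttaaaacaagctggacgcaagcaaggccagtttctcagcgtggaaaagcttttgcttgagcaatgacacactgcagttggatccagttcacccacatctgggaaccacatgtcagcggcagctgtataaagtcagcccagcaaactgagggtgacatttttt
Kif18b holds a CHR match 3 bases after the start and CCAAT boxes 53 and 30 bases before it. In Kif4 the CHR match lies 19 bases after the start and CCAAT boxes 152 and 5 bases before it, the latter on the other strand. The promoter of Dpt, the gene with the largest fall outside the Y chromosome, holds none of the letters searched and is shown for contrast. CHR letters were in 81.0% of promoters of kinesin and spindle genes (17 of 21), 73.3% of those of cytokinesis and 57.1% of those of mitotic cyclins and kinases, against 16.5% of all promoters. In the MCM list they were in 2 of 10 promoters and in deoxynucleotide synthesis in 2 of 16. Over all genes that rose it was 17.6%, close to the share over all genes, and over genes at least 2-fold higher 30.4%. An E2F and a CHR match cannot share a base, whereas a CCAAT match can share 1 base with either. CCAAT was in 37.4% of all promoters and in 43.1% of promoters of genes that rose.

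**Figure D3:**
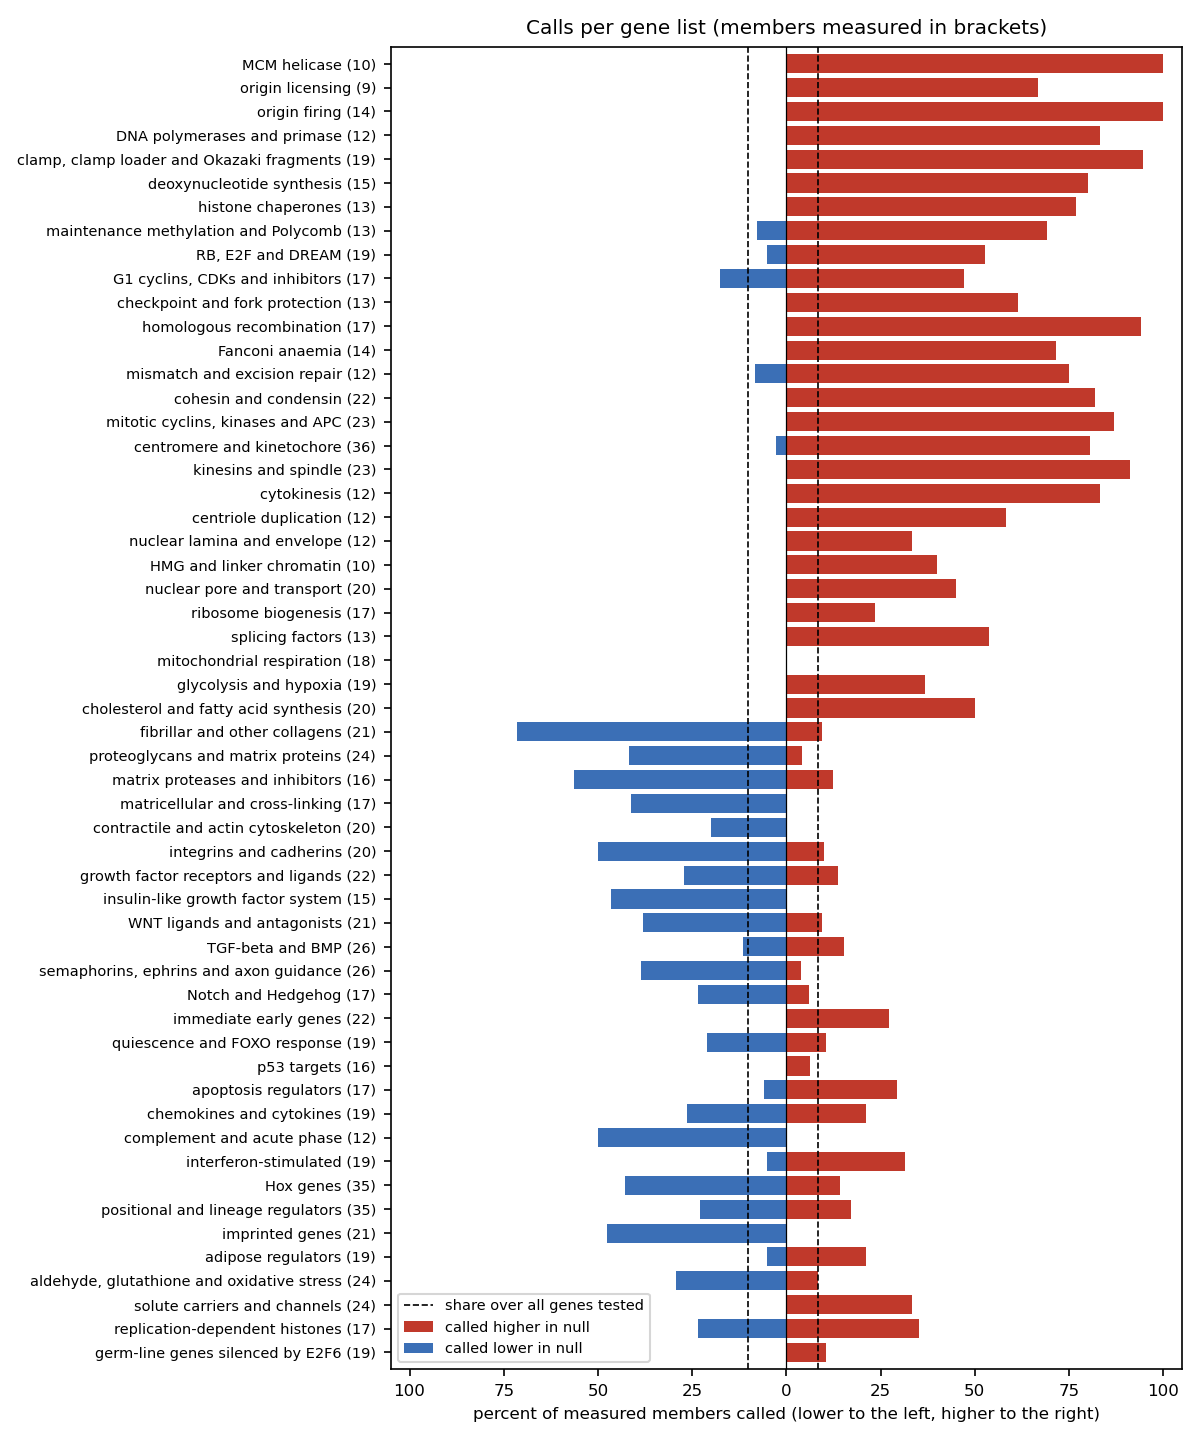
Percent of the measured members of each gene list that were called higher (red, right) or lower (blue, left) in null than in WT, with the number of members measured in brackets. Dashed lines mark the shares over all genes tested, 8.38% higher and 10.1% lower. The MCM and origin firing lists reach 100% to the right, and collagens, with 15 of 21 members lower, reach furthest to the left.

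Genes of the nucleus and of growth outside the cell cycle rose in part. Of 12 genes of the lamina and envelope 4 rose, with Lmnb1, lamin B1, up 1.84-fold and Nrm, nurim, 2.27-fold. Of 10 HMG and variant histone genes 4 rose, with Hmgb2 at 1.93-fold and H2az1 at 1.72-fold. Nuclear pore and transport genes rose in 9 of 20 cases, and Nup85, Nup160 and Nup155 rose 1.46-fold, 1.48-fold and 1.42-fold. Of 17 genes of ribosome biogenesis 4 rose, with Nop58 at 1.49-fold, while nucleolin (Ncl) and nucleophosmin (Npm1) had changes of 0.013 and −0.020. Splicing factors rose in 7 of 13 cases, none by more than 1.35-fold, the value of Hnrnpd. None of 18 respiratory chain genes was called by limma, with 3 at an unadjusted p under 0.05, and their median was −0.079. Glycolysis rose in 7 of 19 genes, among them Pfkl, a phosphofructokinase, 1.58-fold and Tpi1, triose phosphate isomerase, 1.53-fold. Vegfa, the angiogenic factor that hypoxia induces, was at 0.053. In cholesterol and fatty acid synthesis 10 of 20 rose. Acaca and Fasn, the enzymes that commit to and complete fatty acid synthesis, rose 1.46-fold and 1.48-fold, and Srebf1, their regulator, 1.40-fold. Neither against WT replicate 3 alone nor with the Y-linked covariate was there a call for Hnrnpd (0.35 and 0.32), log2 changes in that order, and the covariate alone took the call of Hmgb2 (0.85) and H2az1 (0.81). Counted under other settings, the 4 higher lamina genes became 2 against WT replicate 3 alone, 2 with the Y-linked covariate and 2 without WT replicate 2, null replicate 1 or null replicate 2, while the 4 higher HMG genes became 2 against WT replicate 3 alone and 0 with the Y-linked covariate. In other settings the count of lower HMG genes went from 0 to 1 without WT replicate 3 or with array weights, while the 4 higher ribosome genes became 1 against WT replicate 3 alone, 1 with the Y-linked covariate, 2 without WT replicate 1, WT replicate 2 or null replicate 1 and 1 without null replicate 2. With other settings, the 7 higher splicing genes became 4 against WT replicate 3 alone, 3 with the Y-linked covariate and 4 without WT replicate 2, null replicate 1 or null replicate 2, while the count of higher respiration genes went from 0 to 1 without WT replicate 1 or null replicate 3 or with array weights. Under the alternatives the count of lower respiration genes went from 0 to 1 without the dimmest genes or with median centring or array weights, while the 7 higher glycolysis genes became 4 against WT replicate 3 alone, 2 with the Y-linked covariate and 4 without WT replicate 3 or null replicate 2. Across settings, the count of lower glycolysis genes went from 0 to 1 without WT replicate 3 or with median centring, repeated quantile normalization or array weights, while the 10 higher lipid synthesis genes became 3 against WT replicate 3 alone, 3 with the Y-linked covariate, 19 with repeated quantile normalization and 6 without WT replicate 2, WT replicate 3, null replicate 1 or null replicate 2.

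Most collagen genes and some of the other matrix genes fell. Of 21 collagen genes 15 fell and 2 rose, with a median of −0.42, and their mean signal was 9.61, 9.56 and 9.48 on WT and 9.26, 9.17 and 9.22 on null arrays, without overlap. Col1a1, Col1a2 and Col3a1, the chains of collagens I and III, fell 1.41-fold, 1.5-fold and 1.5-fold. Col4a1, Col4a2 and Col4a5 of basement membrane fell 1.40-fold, 1.34-fold and 1.58-fold. Col5a3 went the other way. Its signal was 7.24, 7.09 and 7.14 on the WT arrays and 7.76, 7.65 and 7.64 on the null arrays, all null arrays above all WT arrays, and it rose 1.44-fold, as did Col18a1, the source of endostatin, by 1.29-fold. Col6a3 was at −0.025. Of 24 proteoglycans and matrix proteins 10 fell and 1 rose. Dcn, decorin, a small proteoglycan that binds collagen, gave 12.08, 11.98 and 11.79 on the WT arrays and 10.64, 10.31 and 10.77 on the null arrays and fell 2.60-fold (SE 0.14, adjusted p = 6.6e-05). Lum, lumican, of the same family, gave 10.71, 10.40 and 10.34 on the WT arrays and 9.37, 7.55 and 9.54 on the null arrays, with null replicate 2 well below the other null arrays, and fell 3.17-fold. The microfibril protein Mfap4 and fibrillin 2 (Fbn2) fell 1.75-fold and 1.46-fold, while Eln, elastin, rose 1.38-fold. Has2, a hyaluronan synthase, was at 0.083. Calls were lost under both sex-pattern settings, first WT replicate 3 alone and then the covariate, for Col1a1 (−0.30 and −0.27), Col1a2 (−0.31 and −0.27), Col3a1 (−0.50 and −0.48), Lum (−1.52 and −1.53) and Eln (0.41 and 0.43) on the log2 scale, and the covariate alone took the call of Col4a2 (−0.40), Col4a5 (−0.56), Col18a1 (0.44) and Mfap4 (−0.47). The log2 change against WT replicate 3 alone was −0.50 for Mfap4. Col1a1 was not called with repeated quantile normalization (log2 −0.19). Col1a2 was not called with repeated quantile normalization (log2 −0.29). Fbn2 was not called with repeated quantile normalization (log2 −0.36). Lum was not called with robust eBayes (log2 −1.66). The count of higher collagen genes went from 2 to 1 with the Y-linked covariate and the 15 lower collagen genes became 4 against WT replicate 3 alone and 1 with the Y-linked covariate. With the setting changed, the count of higher proteoglycan genes went from 1 to 0 against WT replicate 3 alone and 0 with the Y-linked covariate and the 10 lower proteoglycan genes became 4 against WT replicate 3 alone and 3 with the Y-linked covariate.

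Some of the genes that cut or cross-link the matrix fell, and a few rose. Of 16 proteases and inhibitors 9 fell and 2 rose. Ctsk, cathepsin K, gave 10.20, 10.14 and 9.85 on the WT arrays and 8.81, 8.59 and 8.93 on the null arrays and fell 2.44-fold. The collagenase Mmp13 fell 2.89-fold, Mmp11 1.46-fold and Adamts1 1.67-fold. Plau, urokinase, rose 1.51-fold. Mmp3 was at 0.080 and not called. Of 17 matricellular and cross-linking proteins 7 fell and none rose, among them Thbs2, thrombospondin 2, 1.94-fold and Sparcl1, a relative of osteonectin, 1.71-fold. Ccn2, the connective tissue growth factor, was at −0.17. Of 20 contractile and actin genes 4 were called, all below WT. Mylk, the myosin light chain kinase, fell 1.82-fold, and Tpm4 and Cnn2 were at 0.017 and −0.042. Neither against WT replicate 3 alone nor with the Y-linked covariate was there a call for Plau (0.68 and 0.70), Sparcl1 (−0.55 and −0.55) and Mylk (−0.64 and −0.57), log2 changes in that order, and the covariate alone took the call of Mmp13 (−0.80) and Thbs2 (−0.51). The log2 change against WT replicate 3 alone was −0.91 for Mmp13 and −0.58 for Thbs2. With 1 setting changed at a time, the count of higher protease genes went from 2 to 1 against WT replicate 3 alone, 1 with the Y-linked covariate and 1 without X- and Y-linked genes, null replicate 1 or null replicate 2, while the 9 lower protease genes became 4 against WT replicate 3 alone, 3 with the Y-linked covariate and 5 without WT replicate 2. By setting, the 7 lower matricellular genes became 2 against WT replicate 3 alone, 0 with the Y-linked covariate, 11 with array weights or replicate block and 4 without WT replicate 1, WT replicate 2 or null replicate 3, while the 4 lower contractile genes became 0 against WT replicate 3 alone, 0 with the Y-linked covariate, 2 without null replicate 1 or with robust eBayes and 1 without WT replicate 1, WT replicate 2 or null replicate 3.

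Some adhesion receptors fell, while the share that rose was near the 8.38% of all genes. Of 20 integrins and cadherins 10 fell and 2 rose. Itga4, an integrin chain that binds fibronectin and VCAM1, gave 8.82, 8.98 and 8.24 on the WT arrays and 7.0, 7.26 and 6.88 on the null arrays and fell 3.11-fold (SE 0.16, adjusted p = 7.0e-05). Its groups did not overlap, and WT replicate 3 was the lowest WT array. Itga8 and Itga1, partners of the beta 1 chain in mesenchyme, fell 2.10-fold and 1.90-fold, and Ncam1 1.83-fold. The rises were those of Itga2, a collagen receptor chain, 1.90-fold, and Itga6, a laminin receptor chain, 1.65-fold. Icam1, Cdh13 and Cdh1 were at 0.014, −0.028 and 0.033. The gap junction genes Gjb2 and Gja1 rose 2.35-fold and 1.43-fold, in a list of 24 carriers and channels of which 8 rose and none fell by limma (13 at an unadjusted p under 0.05 in either direction). Gjb2 gave 5.75, 5.83 and 5.54 on the WT arrays and 7.08, 7.08 and 6.65 on the null arrays. In the same list the lactate carrier Slc16a1 rose 1.83-fold, the amino acid carrier Slc38a4 1.61-fold and the potassium channels Kcnn4 and Kcnj15 1.54-fold and 1.64-fold. Lost to the covariate alone was the call of Itga1 (−0.71), Itga2 (0.80) and Itga6 (0.75). Counted under other settings, the count of higher adhesion genes went from 2 to 0 with the Y-linked covariate, while the 10 lower adhesion genes became 4 against WT replicate 3 alone, 3 with the Y-linked covariate and 6 without WT replicate 2. In other settings the count of lower carrier genes went from 0 to 2 with array weights and 1 without WT replicate 3.

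Ligands and binding proteins of the insulin-like growth factor system fell in part. Of its 15 genes 7 fell and none rose. Igf1, the growth factor itself, gave 10.47, 10.48 and 10.31 on the WT arrays and 9.34, 9.24 and 9.52 on the null arrays and fell 2.08-fold. Igfbp3 gave 12.07, 12.18 and 11.74 on the WT arrays and 10.77, 10.19 and 10.96 on the null arrays and fell 2.56-fold. Igfbp2 fell 2.60-fold, and the insulin receptor gene Insr 1.35-fold. Igfbp4 and the RNA binding protein Igf2bp1 were at 0.11 and 0.028. Among 22 other receptors and ligands 3 rose and 6 fell. Met, the receptor of hepatocyte growth factor, rose 1.53-fold, while Fgf18, Pdgfc and the neurotrophin receptor Ntrk2 fell 1.67-fold, 1.44-fold and 1.38-fold. Fgf2 and Ntrk3 were at −0.023 and 0.023. Neither against WT replicate 3 alone nor with the Y-linked covariate was there a call for Igfbp2 (−1.14 and −1.18), log2 changes in that order, and the covariate alone took the call of Pdgfc (−0.47). With other settings, the 7 lower IGF genes became 3 against WT replicate 3 alone and 3 with the Y-linked covariate, while the 3 higher growth factor genes became 1 with the Y-linked covariate and 1 without WT replicate 3, null replicate 1 or null replicate 2. Under the alternatives the 6 lower growth factor genes became 3 against WT replicate 3 alone, 2 with the Y-linked covariate and 3 without WT replicate 1.

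Some genes of WNT signalling fell, while the share that rose was near the 8.38% of all genes. Of 21 WNT genes 8 fell and 2 rose. Sfrp1, which binds WNT ligands, gave 11.24, 11.04 and 10.74 on the WT arrays and 9.70, 9.21 and 10.09 on the null arrays and fell 2.53-fold. Dkk3 and Dkk2, of the Dickkopf family, fell 2.38-fold and 2.47-fold, and the ligand Wnt5a 1.83-fold. Rspo2 and Rspo3, which strengthen WNT signals, rose: Rspo2 gave 8.51, 8.42 and 8.35 on the WT arrays and 9.64, 9.26 and 9.67 on the null arrays and rose 2.14-fold, and Rspo3 rose 1.73-fold. Sfrp2 and Wnt16 were at 0.060 and −0.053. Of 26 genes of TGF-beta and BMP signalling 4 rose and 3 fell. The HLH inhibitors Id1 and Id3, early targets of BMP, rose 1.68-fold and 1.38-fold, and the ligand Bmp6 fell 1.83-fold. Smad7 and Tgfbr3 were at −0.011 and 0.0052. Only the covariate took the call of Dkk2 (−1.01). Across settings, the 8 lower WNT genes became 4 against WT replicate 3 alone and 3 with the Y-linked covariate and the 4 higher TGF-beta and BMP genes became 2 without null replicate 1. The 3 lower TGF-beta and BMP genes became 1 without WT replicate 3 or null replicate 1.

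Axon guidance cues, which also act on mesenchyme, fell in 10 of 26 genes, with 1 rise. Slit3 gave 11.63, 11.70 and 11.50 on the WT arrays and 10.56, 10.69 and 10.56 on the null arrays and fell 2.01-fold, the SLIT receptor Robo2 2.24-fold, and the semaphorins Sema5a, Sema3f and Sema3a 2.12-fold, 1.99-fold and 1.80-fold. Unc5c, a netrin receptor, rose 1.86-fold. Epha3 and Sema3e were at −0.021 and 0.047. In the Notch and Hedgehog list 4 of 17 fell and 1 rose. The ligand Jag1 and the target Hey2 fell 1.71-fold and 2.31-fold, while the receptor Notch1 rose 1.44-fold. Hey1 and Gli3 were at 0.062 and −0.015. With the setting changed, the count of higher guidance genes went from 1 to 2 without null replicate 3 or with array weights and the 10 lower guidance genes became 6 with the Y-linked covariate. With 1 setting changed at a time, the count of higher Notch and Hedgehog genes went from 1 to 2 without null replicate 3 and the 4 lower Notch and Hedgehog genes became 2 against WT replicate 3 alone and 2 with the Y-linked covariate.

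Genes that report on serum response, arrest and stress moved little or in part. Of 22 immediate early genes 6 rose and none fell (limma, 9 at an unadjusted p under 0.05 in either direction). Fosl1, a FOS family member, gave 6.98, 7.21 and 6.89 on the WT arrays and 8.13, 8.76 and 7.90 on the null arrays and rose 2.36-fold, Klf10 rose 1.75-fold and Egr3 1.39-fold. Klf4 and Dusp6 were at −0.010 and 0.015. Of 19 quiescence genes 2 rose and 4 fell, with falls of Ccng2, a cyclin of resting cells, 1.44-fold, Gas6, named for its rise at growth arrest, 1.51-fold and Txnip 1.36-fold. Of 16 p53 target genes only Perp was called, at a log2 change of 0.68. Mdm2, Pmaip1 and Ccng1 were at 0.36, 0.33 and −0.10. In apoptosis 5 of 17 genes rose and 1 fell, with Casp2 up 1.45-fold, Casp8 1.28-fold and the survival gene Bcl2l1 1.33-fold. Of 19 germ-line genes that E2F6 keeps silent in somatic cells 2 rose. Stag3 and Smc1b, both meiotic cohesins, rose 1.55-fold and 1.22-fold, and Sycp1 and Tex11 were at 0.0015 and 0.0038. In both of the settings that allow for the sex pattern (WT replicate 3 alone, then the Y-linked covariate) no call was made for Gas6 (−0.45 and −0.42), Perp (0.45 and 0.48), Bcl2l1 (0.40 and 0.41) and Smc1b (0.22 and 0.23), in log2, and the covariate alone took the call of Klf10 (0.51) and Txnip (−0.50). Perp was not called without WT replicate 1, WT replicate 2, null replicate 1 or null replicate 2 or with robust eBayes or only the 2 genotypes compared (log2 0.45 to 0.77). Smc1b was not called without WT replicate 1, WT replicate 2, null replicate 1, WT replicate 3, ΔG replicate 1 or null replicate 3 or with median centring or replicate block (log2 0.21 to 0.32). By setting, the 6 higher immediate early genes became 3 against WT replicate 3 alone, 2 with the Y-linked covariate and 3 without WT replicate 2, while the count of lower immediate early genes went from 0 to 1 without ΔG replicate 3 or with only the 2 genotypes compared or array weights. Counted under other settings, the count of higher quiescence genes went from 2 to 0 against WT replicate 3 alone, 0 with the Y-linked covariate, 1 without WT replicate 1, WT replicate 2, WT replicate 3 or null replicate 2 and 0 without null replicate 1, while the 4 lower quiescence genes became 2 against WT replicate 3 alone and 1 with the Y-linked covariate. In other settings the count of higher p53 target genes went from 1 to 0 against WT replicate 3 alone, 0 with the Y-linked covariate, 4 with repeated quantile normalization, 0 without WT replicate 1, WT replicate 2, null replicate 1 or null replicate 2 or with robust eBayes or only the 2 genotypes compared and 2 without null replicate 3 or with replicate block, while the count of lower p53 target genes went from 0 to 1 without the dimmest genes or ΔG replicate 1 or with median centring, repeated quantile normalization, only the 2 genotypes compared, array weights or replicate block. With other settings, the 5 higher apoptosis genes became 3 against WT replicate 3 alone, 3 with the Y-linked covariate and 3 without WT replicate 1, WT replicate 2, WT replicate 3, ΔG replicate 2, null replicate 1 or null replicate 2, while the count of lower apoptosis genes went from 1 to 0 without WT replicate 3, null replicate 2 or null replicate 3 or with mean of probe sets. Under the alternatives the count of higher germ-line genes went from 2 to 1 against WT replicate 3 alone, 1 with the Y-linked covariate and 1 without the dimmest genes, WT replicate 1, WT replicate 2, WT replicate 3, ΔG replicate 1, null replicate 1 or null replicate 3 or with median centring or replicate block, while the count of lower germ-line genes went from 0 to 1 without WT replicate 2.

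Among immune genes, chemokines changed in both directions, some complement genes fell and some interferon-stimulated genes rose. Of 19 chemokines and cytokines 4 rose and 5 fell. Cxcl5, which draws neutrophils, gave 6.33, 6.68 and 6.12 on the WT arrays and 7.47, 7.0 and 7.51 on the null arrays and rose 1.93-fold, Cxcl1 1.43-fold and Ccl5 1.5-fold. Ccl2, Ccl7 and Ccl11, the neighbouring ligands that draw monocytes and eosinophils, fell 2.12-fold, 1.77-fold and 1.59-fold. Ccl2 gave 9.10, 9.09 and 8.91 on the WT arrays and 8.08, 7.96 and 7.82 on the null arrays. All null arrays lay below all WT arrays. The alarmin Il33 fell 2.28-fold. Of 12 complement and acute phase genes 6 fell and none rose, among them C1s1, a protease of the first complement component, 2.10-fold, and Clu, clusterin, 2.18-fold. Orm1 and Ptx3 were at −0.015 and 0.048. Of 19 interferon-stimulated genes 6 rose and 1 fell, beside 8.38% and 10.1% of all genes. Ifit2 gave 7.10, 6.87 and 6.95 on the WT arrays and 7.67, 7.72 and 7.64 on the null arrays and rose 1.63-fold, and Irf7 rose 1.35-fold. Ddx58 and Oasl1 were at −0.0022 and 0.032. Beside these changes the macrophage markers Lyz2, C1qa and Csf1r had log2 changes of −0.67, −0.019 and −0.17, and the markers' mean was lower on WT replicate 3 (5.47) than on WT replicates 1 and 2 (6.54 and 6.15). The part of macrophages in these changes was not tested. With WT replicate 3 as the only WT array and with the Y-linked covariate, in this order, Ccl2 (−0.96 and −1.0), Ccl7 (−0.60 and −0.62), Ccl11 (−0.36 and −0.32) and Clu (−0.75 and −0.75) were not called (log2 changes), and the covariate alone took the call of Irf7 (0.41). Across settings, the 5 lower chemokine genes became 1 against WT replicate 3 alone and 1 with the Y-linked covariate and the 6 lower complement genes became 1 against WT replicate 3 alone and 1 with the Y-linked covariate. The 6 higher interferon genes became 2 against WT replicate 3 alone and 1 with the Y-linked covariate, while the count of lower interferon genes went from 1 to 0 without WT replicate 1, WT replicate 3, null replicate 1 or null replicate 2.

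Hox genes, which record position along the body and limb, changed in both directions. Of 35 measured Hox genes 15 fell and 5 rose. The falls were in members numbered 2 to 9 of the HoxB, HoxC and HoxD clusters. Hoxd4 gave 7.29, 7.54 and 7.71 on the WT arrays and 5.84, 5.83 and 5.96 on the null arrays, with the groups more than 1 unit apart, and fell 3.11-fold (SE 0.16, adjusted p = 6.1e-05). Hoxd8 and Hoxc8 fell 2.5-fold and 2.16-fold, Hoxc5 1.79-fold, and Hoxb4 and Hoxb9 1.68-fold and 1.70-fold. The rises were in members numbered 10 to 13 of HoxD and in Hoxa11, genes that pattern the limb. Hoxd10 gave 7.51, 7.58 and 7.39 on the WT arrays and 8.36, 8.20 and 8.31 on the null arrays and rose 1.74-fold, and Hoxd12 gave 6.30, 5.85 and 5.97 on the WT arrays and 7.38, 6.88 and 7.10 on the null arrays and rose 2.11-fold. Hoxd11, Hoxd13 and Hoxa11 rose 1.64-fold, 2.31-fold and 1.37-fold. Hoxc11 and Hoxa4 were at 0.021 and 0.0069. Hoxd11 and Hoxd13 were chosen after their values were seen. In both of the settings that allow for the sex pattern (WT replicate 3 alone, then the Y-linked covariate) no call was made for Hoxd12 (1.15 and 1.05), Hoxd11 (0.83 and 0.77), Hoxd13 (1.43 and 1.30) and Hoxa11 (0.56 and 0.55), in log2, and the covariate alone took the call of Hoxd10 (0.85). Hoxd11 was not called without WT replicate 2, WT replicate 3, null replicate 1, null replicate 2 or null replicate 3 or with robust eBayes (log2 0.65 to 0.76). Hoxd13 was not called without WT replicate 2, WT replicate 3, null replicate 1 or null replicate 3 or with robust eBayes (log2 1.10 to 1.21). Hoxa11 was not called without WT replicate 3, null replicate 1, null replicate 2 or WT replicate 1 (log2 0.38 to 0.45). With the setting changed, the 5 higher Hox genes became 1 against WT replicate 3 alone, 0 with the Y-linked covariate, 3 without WT replicate 2, null replicate 2 or null replicate 3 or with robust eBayes and 2 without WT replicate 3 or null replicate 1, while the 15 lower Hox genes became 8 against WT replicate 3 alone and 6 with the Y-linked covariate.

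**Figure D4:**
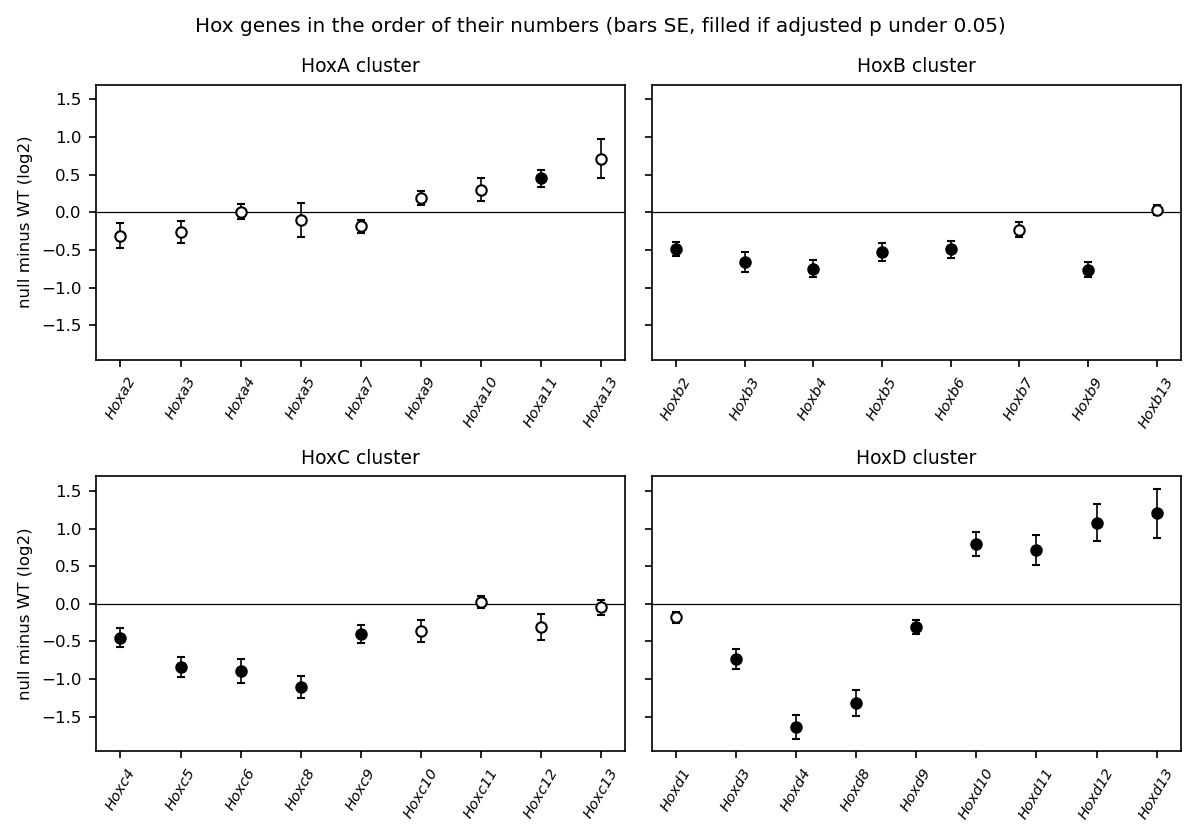
Change between null and WT (log2) of 35 Hox genes in 4 panels, 1 per cluster, ordered by number, with whiskers of 1 SE and filled points for an adjusted p under 0.05. In the HoxD panel the filled points run from −1.64 at Hoxd4 to 1.21 at Hoxd13, while in the HoxB panel the filled points all lie below 0.

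Other regulators of position divided as well, 6 of 35 higher and 8 lower. Tbx4 and Pitx1, which mark the hindlimb, both rose. Tbx4 gave 7.94, 7.61 and 6.77 on the WT arrays and 9.06, 8.80 and 8.81 on the null arrays, with WT replicate 3 lowest and all null arrays above the highest WT array, and rose 2.73-fold (SE 0.33, adjusted p = 0.0100). Pitx1 gave 6.54, 6.49 and 6.38 on the WT arrays and 7.15, 7.13 and 7.25 on the null arrays and rose 1.64-fold. En1, of ventral limb ectoderm and dermis, fell 1.71-fold, Emx2 1.47-fold, Shox2, of proximal limb, 1.58-fold, Twist2 1.42-fold and Irx5 1.34-fold. Prrx2 rose 1.37-fold. Zic1 and Osr2 were at −0.036 and −0.046. ΔG arrays gave Tbx4 at 6.95, 7.04 and 8.21 and Hoxd4 at 7.61, 7.17 and 6.89. All ΔG arrays lay below all null arrays for Tbx4 and above them for Hoxd4. The labels do not give the part of the embryo from which each culture grew. With WT replicate 3 as the only WT array and with the Y-linked covariate, in this order, Shox2 (−0.53 and −0.52), Twist2 (−0.51 and −0.50), Irx5 (−0.39 and −0.40) and Prrx2 (0.49 and 0.46) were not called (log2 changes). With 1 setting changed at a time, the 6 higher positional genes became 3 against WT replicate 3 alone, 3 with the Y-linked covariate and 3 without WT replicate 1, null replicate 1 or null replicate 2, while the 8 lower positional genes became 3 against WT replicate 3 alone and 3 with the Y-linked covariate.

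Imprinted genes, expressed from 1 parental copy, fell in 10 of 21 cases and rose in none by limma (14 at an unadjusted p under 0.05 in either direction). Meg3, a long noncoding RNA of the maternal copy, gave 11.31, 11.49 and 11.25 on the WT arrays and 10.26, 10.32 and 10.38 on the null arrays and fell 2.04-fold (SE 0.14, adjusted p = 5.2e-04). Rtl1, expressed from the paternal copy of the same region, fell 1.49-fold. Plagl1, a zinc finger regulator of other imprinted genes, fell 1.48-fold, Ndn, necdin, which can bind E2F, 1.35-fold, Impact 1.34-fold and Sgce 1.30-fold. Mest and Magel2 were at 0.076 and −0.055. With the covariate alone no call was made for Plagl1 (−0.56). By setting, the 10 lower imprinted genes became 6 against WT replicate 3 alone and 5 with the Y-linked covariate.

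Meg3 and Rtl1 lie in the Dlk1 to Dio3 interval of chromosome 12, which also holds a large group of microRNA genes. The interval was singled out after its values were seen. Its mature sequences are shown, 1 arm each, for the 7 microRNA genes with the largest falls, with the seed (bases 2 to 8) in capitals, from RefSeq (GRCm38.p6). All 40 measured microRNA genes matched that table.
miR-376b-3p: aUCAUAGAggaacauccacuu
miR-369-3p: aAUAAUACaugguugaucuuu
miR-380-3p: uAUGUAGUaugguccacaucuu
miR-377-3p: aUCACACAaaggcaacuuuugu
miR-379-3p: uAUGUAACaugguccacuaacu
miR-411-3p: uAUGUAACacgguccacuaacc
miR-382-5p: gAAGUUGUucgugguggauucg
miR-300-3p: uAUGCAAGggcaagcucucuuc
The seed AUGUAAC is shared by miR-379-3p and miR-411-3p, which is added for that reason, and the seed UGGAUAU by miR-376b-5p and miR-376c-5p. The other seeds shown differ from each other. Array probes report RNA from the gene and not the mature microRNA.

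Of 47 measured genes of the interval 43 were called lower (91.5%) and none higher, with a median log2 change of −0.91. Among its 40 microRNA genes 37 were lower, with a median of −0.93. Of 260 microRNA genes elsewhere 27 were lower (10.4%) and 9 higher, with a median of −0.0074, near the 10.1% over all genes. Mir376b gave 5.81, 6.4 and 6.81 on the WT arrays and 4.72, 4.75 and 4.83 on the null arrays and fell 2.98-fold. Mir369 gave 6.56, 6.84 and 6.76 on the WT arrays and 4.81, 5.35 and 5.41 on the null arrays and fell 2.88-fold. For both, all null arrays lay below all WT arrays. Mir380, Mir377, Mir379, Mir382 and Mir300 fell 2.75-fold, 2.69-fold, 2.65-fold, 2.65-fold and 2.61-fold. The mean of the 40 was 6.61, 6.87 and 7.10 on WT, 6.84, 6.83 and 6.36 on ΔG and 5.90, 5.89 and 5.99 on null arrays, with WT replicate 3 highest of all. The genes lie next to each other and many come from shared transcripts, so they are not independent. The genes at the ends differed, Dlk1 at a log2 change of −0.80 and Dio3 at 0.23, which was not called. Against WT replicate 3 alone 34 of the 40 were lower, with a median of −1.19, and against ΔG 31, with a median of −0.73. With WT replicate 3 as the only WT array and with the Y-linked covariate, in this order, Dlk1 (−0.78 and −0.75) was not called (log2 changes). Dlk1 was not called without WT replicate 1, WT replicate 2, WT replicate 3, ΔG replicate 2, null replicate 1 or null replicate 2 or with repeated quantile normalization or robust eBayes (log2 −0.89 to −0.53).

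**Figure D5:**
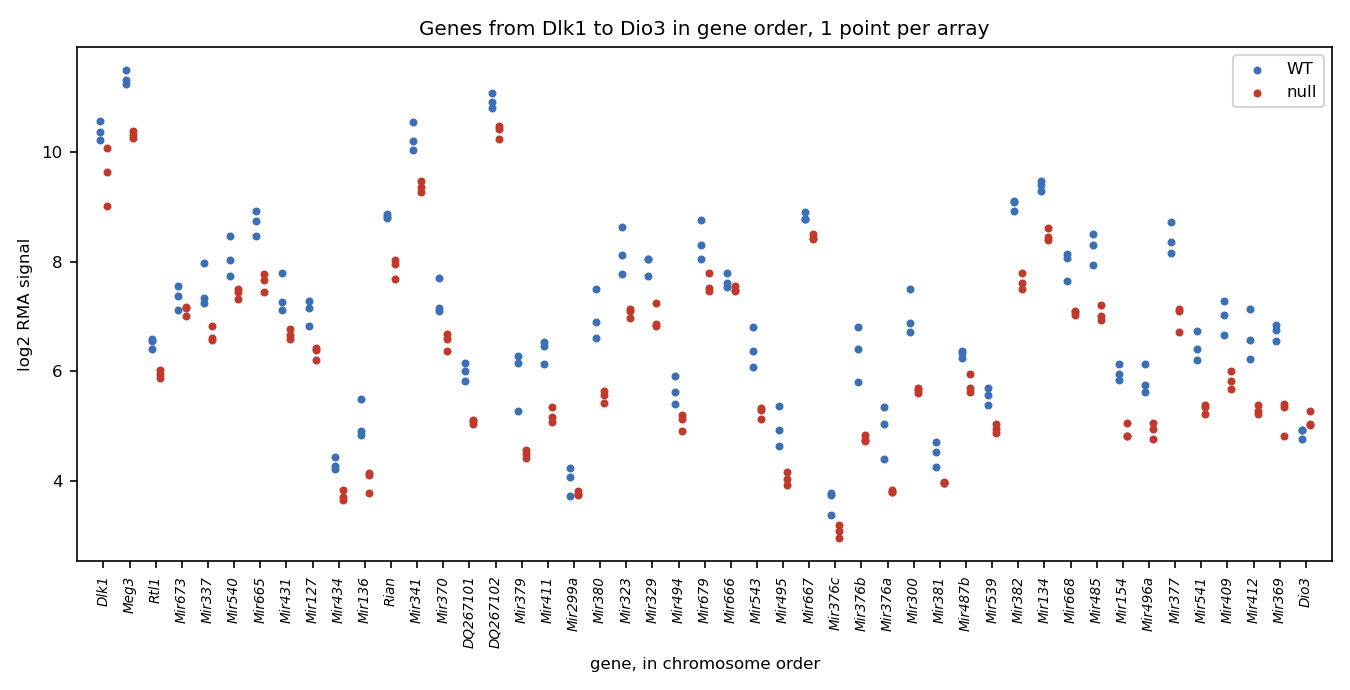
Signal (log2 RMA) of the measured genes from Dlk1 to Dio3 in gene order, 1 point per array, WT in blue and null in red. The red points lie below the blue ones for nearly every gene, and Dio3 at the right end does not follow.

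Some genes of fat cells rose and some of oxidative stress fell. Calls the other way were no more frequent than over all genes. Of 19 regulators and markers of fat cells 4 rose and 1 fell, with Fabp4, the fatty acid carrier of adipocytes, up 1.72-fold and Ucp1 at −0.0029. Of 24 genes of aldehyde, glutathione and oxidative stress metabolism 2 rose and 7 fell. Gpx3, the secreted glutathione peroxidase, gave 8.94, 9.01 and 8.53 on the WT arrays and 7.14, 7.59 and 7.42 on the null arrays and fell 2.72-fold, and Gstm1 and Gstm2, near-identical glutathione transferases, 1.43-fold and 1.40-fold. Nqo1, a target of NRF2, rose 1.51-fold, and catalase (Cat) was at 0.015. The covariate alone took the call of Gstm1 (−0.42) and Nqo1 (0.57). Counted under other settings, the 4 higher adipose genes became 1 against WT replicate 3 alone, 1 with the Y-linked covariate, 2 without WT replicate 1, WT replicate 2, WT replicate 3 or null replicate 2 and 1 without null replicate 3, while the count of lower adipose genes went from 1 to 0 against WT replicate 3 alone, 0 with the Y-linked covariate, 2 with array weights and 0 without WT replicate 1, null replicate 1 or null replicate 2. In other settings the count of higher oxidative stress genes went from 2 to 1 against WT replicate 3 alone and 0 with the Y-linked covariate and the 7 lower oxidative stress genes became 3 against WT replicate 3 alone and 2 with the Y-linked covariate.

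Null and ΔG were set side by side for the leading genes of each function, in the same fit, where 1737 genes were called (8.71%), 851 higher (4.27%) and 886 lower (4.44%) in null. The null arrays are the same as in the comparison with WT, so the values stand side by side and do not support each other, and sex pattern and genotype coincide fully between null and ΔG. With the Y-linked covariate 53 genes were called. Mcm6 was at 9.13 ± 0.13 in ΔG (mean ± SD, n = 3), between WT and null, and null exceeded ΔG by 0.70 (SE 0.12, adjusted p = 0.0059). Prim1 was at 7.69 ± 0.22 in ΔG and 2.06-fold higher in null. Ccne2 was 2.13-fold higher in null than in ΔG, E2f8 2.28-fold and Kif18b 1.97-fold. For Mcm4 the difference of 0.29 was not called (adjusted p = 0.15), nor for Chaf1a, at 0.28 (adjusted p = 0.075). Serpina3n was at 10.68 ± 0.20 in ΔG and 12.6-fold lower in null, Trak1 at 8.45 ± 0.027 and 4.05-fold lower, Dcn at 11.73 ± 0.22 and 2.22-fold lower, and Itga4 2.37-fold lower. Dpt varied between the ΔG arrays, at 10.26, 8.93 and 8.47, and was 6.95-fold lower in null. For Igfbp2 null and ΔG differed by −0.047 (SE 0.24, adjusted p = 0.94), and ΔG arrays gave 9.78, 9.50 and 10.63. Fits that left out ΔG replicate 1, ΔG replicate 2 or null replicate 1 called 762, 885 and 847 genes between null and ΔG, and a fit with array weights called 3697.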

How the data were processed

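RNA of 9 cultures was measured on 9 arrays, 3 per genotype. The values are log2 signals that the authors made by RMA in BRB-ArrayTools, per the labels of the series, and deposited as 1 table. The submitters' processing notes also name affy, while tool versions and the build of the genome are not stated in what was used here. RMA makes array distributions alike and compresses low signals.

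Of 35512 probe sets 1 had no values. A single gene symbol was paired with 21789 by the platform annotation, several with 1621 and none with 12101, and 21698 of the first kind matched RefSeq by gene ID. Where a gene had several probe sets (999 genes) the one with the highest mean over the 9 arrays was used. The 19938 genes were tested without a filter in limma 3.58.1 (R 4.3.3; lmFit and eBayes without trend, 6 residual and 5.24 prior degrees of freedom), all 9 arrays in 1 fit, with Benjamini-Hochberg adjustment at 0.05. Standard errors are the moderated ones of eBayes. Tables were made with Python 3.11.15 and pandas 2.3.3. On simulated data with 200 changed genes, the null against WT test called 70.1%, 97% and 100% of genes changed by 0.5, 1 and 2 log2. It also made 19 false calls. The simulation changed far fewer genes than the 3678 called here and drew the noise of each gene independently. These shares therefore need not hold for the real comparison. The number of arrays limits the precision.

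Named genes are Rb1; the 20 largest non-overlapping changes each way, leaving out receptors of odour, taste and pheromones, microRNAs, snoRNAs, and predicted or clone-named genes; and per list up to 6 members of lowest p, up to 3 called against the sign of the list's median and up to 2 of highest p. Sex-linked and marker lists may be named whole. The members and gene lists were chosen with earlier results of these data known. Promoters and mature microRNAs come from RefSeq (GRCm38.p6). The alternatives changed the normalization, the filter, the eBayes prior, the probe set rule, the arrays in the fit, array weights, the replicate block and the treatment of sex-linked genes. Probe sets with several symbols or none were not analysed here.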

Additional observations from a re-analysis of the deposited data

How the results depend on the processing

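The settings that allow for the sex pattern moved the null against WT totals most. The 3678 genes called between null and WT, 1670 higher and 2008 lower, became 1580 (764 and 816) with the Y-linked covariate and 2010 (981 and 1029) against WT replicate 3 alone. With the covariate the log2 changes of Uty and Xist turned to 0.0999 and −0.15, neither of them called. Uty is part of the covariate and Xist runs opposite to it over the arrays, so this followed from the setting. No other named gene turned its sign among those called in the main fit or in the setting. Turns of sign by genes called in neither, many of them near 0, were not counted. With array weights the total rose to 4851, 2200 higher and 2651 lower. Null replicate 1 then had a weight of 2.89, against 0.671 and 0.730 for null replicates 2 and 3. Leaving out 1 array at a time gave 2546 to 3895 calls, and 1213 calls, 619 higher and 594 lower, were kept under all 21 alternatives. The share of promoters of higher genes with an E2F motif, 9.32%, was 13.7% with the covariate and 11.8% against WT replicate 3 alone. The 1737 calls between null and ΔG became 53 with the covariate and 3697 with array weights, and lay between 762 and 2408 without 1 array. The cause of these moves was not tested. Of the 345 genes named, 74 lost their call under at least 1 alternative. By the count limited to genes called in the main fit or the alternative, 2 turned their sign. Rb1 remained called under the alternatives run. Array numbers were not taken as pairs, since no label says which arrays belong together. Deviations of same-numbered WT and null arrays correlated at 0.133, 0.182 and 0.0227, against −0.159 to 0.0701 for other numbers. Whether the numbers mark litters was not tested. Among null arrays each WT array correlated best with its own number, and among WT arrays null replicate 3 did so with WT replicate 1. With the replicate block 3777 genes were called between null and WT and 1977 between null and ΔG. With 3 arrays a group, 4.53% of the 6646 dimmest genes were called between null and WT and 27.7% of the 6646 brightest.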
